A study of Mus musculus with 6 samples.

Results

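The levels of 10 genes of the Wnt pathway were followed across the cell classes and disease states of the C3Tag mouse mammary gland. The genes were taken by name, namely the ligands Wnt2, Wnt4, Wnt5a, Wnt5b, Wnt6, Wnt7b and Wnt10a, the R-spondin Rspo1, the R-spondin receptor Lgr5 and the target gene Axin2, and they were 10 of the 31055 features of the count tables. All of the animals were female and carried C3Tag, a transgene in which the rat C3(1) promoter drives the SV40 large T antigen in mammary epithelium, in a line that the study's methods place in the FVB/NJ background. Whole mammary glands were taken at 5 weeks of age (Prepuberty) and at 14 weeks, when glands held lesions like ductal carcinoma in situ (DCIS), and palpable tumors were taken at more than 18 weeks (Tumor). Each state had 2 single-cell RNA-seq libraries, 6 in all, and every state carried the transgene, so that none of them is a wild-type control.

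Wnt proteins are lipid-modified secreted ligands that bind Frizzled receptors. In the canonical branch they stabilise beta-catenin, which acts with TCF/LEF factors on target genes such as Axin2, while ligands of the Wnt5a type mostly act through branches that do not need beta-catenin. R-spondins bind Lgr receptors and raise the sensitivity of a cell to Wnt. In the mouse mammary gland Wnt4 is known as a progesterone-induced ligand of hormone-sensing luminal cells, and it and Rspo1 are known for their part in the maintenance of basal stem cells.

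All 10 genes lie on the autosomes, and the coordinates here are those of GRCm38. Wnt6 (chr1:74771892-74785322) and Wnt10a (chr1:74791516-74804179) lie on the plus strand with 6193 bases between them and no other gene of the list on that chromosome. Of the remaining ligands, Wnt2 is at chr6:17988940-18030585 and Wnt5b at chr6:119432531-119544347, both on the minus strand, Wnt4 is at chr4:137277489-137299726 and Wnt5a at chr14:28504750-28527448, both on the plus strand, and Wnt7b is at chr15:85535437-85582473 on the minus strand. Rspo1 is at chr4:124986430-125009099 on the plus strand, Lgr5 at chr10:115450311-115587780 on the minus strand and Axin2 at chr11:108920349-108950783 on the plus strand. In the RefSeq table of promoters (GRCm38.p6), 6 of the 10 genes had an entry, with 8 windows among them. Wnt5a, Wnt7b, Wnt10a and Lgr5 had none. The 250 bases before the start were searched on both strands for CTTTGA, the core of the TCF/LEF motif, whose reverse complement is TCAAAG. It was found in 1 of the 8 windows, the third start of Wnt5b, against 4544 of all 32851 windows (13.8%). Shown here are 3 windows, since 1 holds the match and the others belong to a called ligand and to the beta-catenin target, with the match in capitals.
Wnt5b, the third start, chr6:119449387-119449636, minus strand: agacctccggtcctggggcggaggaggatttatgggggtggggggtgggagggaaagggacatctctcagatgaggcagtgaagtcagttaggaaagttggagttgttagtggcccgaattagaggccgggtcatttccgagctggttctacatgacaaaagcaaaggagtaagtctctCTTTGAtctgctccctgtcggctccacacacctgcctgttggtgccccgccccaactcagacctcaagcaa
Wnt6, chr1:74771642-74771891, plus strand: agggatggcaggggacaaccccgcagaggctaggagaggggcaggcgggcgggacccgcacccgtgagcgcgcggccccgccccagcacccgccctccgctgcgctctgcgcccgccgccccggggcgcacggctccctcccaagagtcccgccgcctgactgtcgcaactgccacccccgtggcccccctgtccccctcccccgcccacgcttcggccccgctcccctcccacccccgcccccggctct
Axin2, chr11:108920099-108920348, plus strand: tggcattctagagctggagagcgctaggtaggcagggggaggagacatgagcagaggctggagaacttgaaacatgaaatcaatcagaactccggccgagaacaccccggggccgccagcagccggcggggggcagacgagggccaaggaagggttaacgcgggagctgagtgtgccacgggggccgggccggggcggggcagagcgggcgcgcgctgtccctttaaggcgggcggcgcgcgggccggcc
The GC content of these windows was 55.6% for that of Wnt5b, 79.6% for Wnt6 and 69.2% for Axin2.

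The libraries held between 28512209 and 57143434 unique molecular identifiers (UMIs, each a counted mRNA molecule) in 21537 kept cells of 23835 barcodes, with a median of 6541 to 13631.5 UMIs per cell. Pairs of libraries shared 7 to 34 barcodes. The classes were named from marker genes, with the 84 genes of the Wnt lists left out of the clustering. The epithelial-like class held 160 to 2809 cells per library and included hormone-sensing luminal-like cells (cluster 12), secretory luminal progenitor-like cells (cluster 8) and other epithelial-like clusters. The fibroblast-like class held 174 to 1441 cells and the myoepithelial-like class 44 to 635. Clusters 0, 13 and 19 stayed unnamed, and cluster 19 (334 cells) was not followed here. T antigen UMIs were seen in 72.6% and 57.0% of the epithelial-like cells of Tumor 1 and Tumor 2, but also in 16.1% and 45.6% of the fibroblast-like cells of those libraries and in 43.2% and 51.9% of the cells of the myoepithelial-like cluster. In the Tumor cells of that last cluster the smooth muscle markers Acta2 and Myh11 were at 0 in both libraries, so they are named here only by their cluster. The labels do not say whether the libraries of a state came from separate animals. The study speaks of technical replicates in one place and of separate specimens and tumors in another, so p-values measure the spread between these libraries, which may be technical or biological. The labels give all samples an overnight digestion and the v2 kit. The methods give the tumors another dissociation, which, if so, cannot be told apart from the Tumor state, and Tumor 2 alone the v3 kit, so that Tumor 1 shares its kit with the 4 gland libraries.

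Values are in CPM, the UMIs of a gene scaled by all UMIs of the class in that library, and they are always given in the order Prepuberty 1, Prepuberty 2, DCIS 1, DCIS 2, Tumor 1 and Tumor 2. State effects were tested with edgeR's quasi-likelihood test on the sums per library, with Benjamini-Hochberg adjustment over all genes tested in the class and a threshold of 0.05. A sum of UMIs per class does not tell a rise in each cell from a change in which cells of the class carry the gene.

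The 10 genes differed in the classes that held their UMIs. Epithelial-like cells held 90.8% of all UMIs of Wnt5b, 89.7% of Wnt7b, 83.9% of Wnt4, 64.2% of Wnt10a and 56.4% of Wnt5a. For Wnt2 the share was 0.754%, and fibroblast-like cells with clusters 0 and 13 held 98.8%. The myoepithelial-like cluster held 24.5% of the UMIs of Wnt5a and 13% of those of Wnt6. Axin2 was spread over several classes, with 36.1% in fibroblast-like cells, 31.5% in epithelial-like cells and 1.98% in T cell-like cells. These shares depend on how many cells of each class a library held, and the levels in CPM do not.

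**Figure D1:**
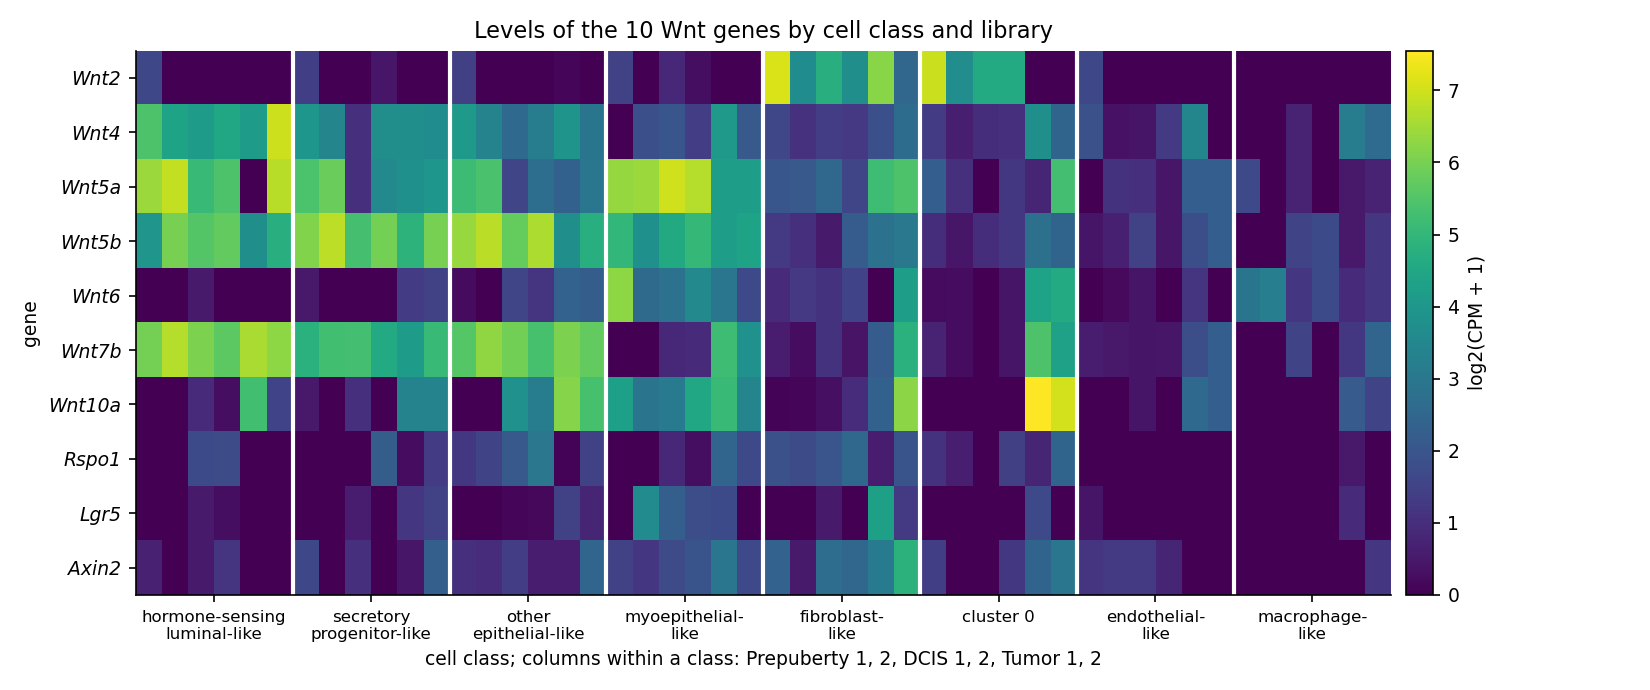
Level of each of the 10 genes, as log2(CPM + 1), in 8 cell classes, with the 6 libraries of a class side by side in the order Prepuberty 1, 2, DCIS 1, 2, Tumor 1, 2. Wnt2 is bright in the fibroblast-like cells and in the Prepuberty and DCIS cells of cluster 0, Wnt7b in all 3 epithelial-like classes, and Wnt10a in the Tumor columns.

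Taking the mean over the 6 libraries, the order of the classes was read against the range of their libraries. Wnt4 was highest in hormone-sensing luminal-like cells (40.5 ± 42.9 CPM, SD, n = 6), and the range of that class, from 16.7 to 126 CPM, did not meet the range of the secretory luminal progenitor-like cells next in order, from 1.06 to 14.6 CPM. Wnt7b was highest in hormone-sensing luminal-like cells (75.2 ± 21 CPM) and overlapped the other epithelial-like cells (57.2 ± 13.9 CPM), and those lay apart from the secretory luminal progenitor-like cells (29.4 ± 8.40 CPM). For Wnt5a the myoepithelial-like cluster (72.2 ± 45.5 CPM) and the hormone-sensing luminal-like cells (63.6 ± 45.3 CPM) overlapped. Wnt5b was led by the other epithelial-like cells (63.4 ± 39.4 CPM) and the secretory luminal progenitor-like cells (61.8 ± 28.7 CPM), which overlapped as well. The clusters were made from the expression of these cells, so the order is a description and was not tested.

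Wnt5a, the ligand best known for signalling without beta-catenin, fell in epithelial-like cells and rose in fibroblast-like cells of tumors. In epithelial-like cells its levels were 54.2, 67.8, 6.13, 17.8, 5.13 and 9.66 CPM, from 714, 164, 102, 278, 228 and 270 UMIs. Both Prepuberty libraries lay above all others, and DCIS and Tumor overlapped. From Prepuberty to Tumor the log2 fold change was -3.35 (SE 0.54, adjusted p = 0.0299). From Prepuberty to DCIS it was -2.21 (SE 0.52, adjusted p = 0.274), which missed the threshold. The class changed in makeup between the states, since cluster 12 held 340 and 54 of the epithelial-like cells of the Prepuberty libraries while cluster 6 held 827 and 308 of those of the Tumor libraries. Within cluster 1 and the secretory luminal progenitor-like cells the levels ran the same way from Prepuberty to Tumor. The part of the changed makeup in the fall was not tested. In cluster 1, whose leading genes are those of mitosis (Ccnb1, Hmmr, Ube2c), they were 43.4, 99.9, 1.68, 5.14, 5.34 and 8.21 CPM, with only 7 cells behind the value of Prepuberty 2. In secretory luminal progenitor-like cells they were 41.6, 55.6, 1.06, 10.8, 12.8 and 14.7 CPM, with a fold change from Prepuberty to Tumor of -2.17 on the log2 scale (adjusted p = 0.0777, called without DCIS 1 with 0.0329 or DCIS 2 with 0.0364). In both of these clusters each Prepuberty library lay above every later one. In hormone-sensing luminal-like cells the values were 84.2, 116, 33.9, 42.3, 0 and 105 CPM. Tumor 1, with 18 cells, was the lowest there, and Tumor 2, with 43 cells, lay within the range of Prepuberty. Without Prepuberty 1 or without Prepuberty 2 the epithelial-like call was lost, with adjusted p of 0.102 and 0.108 at fold changes of -3.43 and -3.34.

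The myoepithelial-like cluster carried Wnt5a at 80.3, 84.7, 128, 104, 18.0 and 17.5 CPM, from 44, 66, 166, 464, 8 and 16 UMIs. The Tumor libraries lay far below all 4 gland libraries. Log2 fold changes were -3.33 from DCIS to Tumor (SE 0.40, adjusted p = 0.000965) and -2.51 from Prepuberty to Tumor (SE 0.41, adjusted p = 0.00572), and no library left out ended either call. In this cluster the summed level of the 10 myoepithelial markers was 7463 to 15672 CPM in the gland libraries and 1779 and 4343 CPM in the Tumor libraries, and that of the 10 epithelial markers was 715 to 1659 CPM against 6271 and 2962 CPM. The part of that shift in the fall of Wnt5a was not tested. Clustered without integration, the class held no Tumor cells and the comparison could not be made.

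In fibroblast-like cells Wnt5a was at 3.02, 3.33, 4.77, 2.01, 35.5 and 42.7 CPM, from 48, 36, 21, 13, 69 and 119 UMIs. Both Tumor libraries stood above the 4 gland libraries, which overlapped among themselves. Log2 fold changes were 2.94 from DCIS to Tumor (SE 0.50, adjusted p = 0.0288, and 0.0213 with the replicate number as a block) and 3.21 from Prepuberty to Tumor (SE 0.49, adjusted p = 0.0248). In fibroblast-like cells without a T antigen UMI the values were 3.02, 3.34, 4.81, 2.01, 27.4 and 57.8 CPM, so that the Tumor libraries were again the highest. The fibroblast-like cells that did carry one had 70.0 CPM in Tumor 1 and 31.4 CPM in Tumor 2. A cell that expresses the T antigen may show no UMI of it. Such cells can remain in the group without one, for this gene and the others. In cluster 10, a fibroblast-like cluster that held cells of every library, the values were 2.86, 12, 12.1, 7.36, 49.1 and 44.4 CPM. T antigen UMIs were seen in 42.1% of its Tumor cells, against 16.2% in cluster 3 and 8.0% in cluster 4. Endothelial-like cells, taken as a measure of free RNA, were at 3.75 and 3.74 CPM in the Tumor libraries, from 3 UMIs and 1 UMI. The summed epithelial markers of the fibroblast-like cells were 18.6 to 94.7 CPM in the gland libraries and 226 and 174 CPM in the Tumor libraries, and the 10 myoepithelial markers stood at 42.9 to 89.5 CPM against 2714 and 409 CPM, with 8 of the 10 seen in Tumor cells and Oxtr at 0. Their part in the rise of Wnt5a was not tested. The call from DCIS to Tumor was lost without Prepuberty 1 (adjusted p = 0.0742), Prepuberty 2 (0.0727), DCIS 1 (0.0977), DCIS 2 (0.218) or Tumor 2 (0.0548), at fold changes of 2.31 to 3.63, and with only the 4 libraries compared (0.0602). The call from Prepuberty to Tumor was lost without Prepuberty 1 (0.148) or Prepuberty 2 (0.208), at 3.16 and 3.22.

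The effect of the state on Wnt5a differed between the classes. In a fit with both classes and the library as a block, the change from Prepuberty to Tumor in epithelial-like cells was lower than that in fibroblast-like cells by a difference of -6.57 on the log2 scale (SE 0.81, adjusted p = 0.0124), and that from DCIS to Tumor by -3.94 (SE 0.83, adjusted p = 0.0479). Of all 14206 genes in that fit, 5.05% and 2.63% were called in the same comparisons. The first difference lost its call without Prepuberty 1 (-6.61, adjusted p = 0.0502). The second was lost with RLE in place of TMM scaling (-3.97, 0.0538) and without Prepuberty 1 (-3.90, 0.0655), DCIS 1 (-5.37, 0.0579) or DCIS 2 (-2.47, 0.301). The pericyte or smooth muscle-like class also had Wnt5a in tumors, with 4 UMIs in Tumor 1 and 18 in Tumor 2, from 25 and 6 cells.

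**Figure D2:**
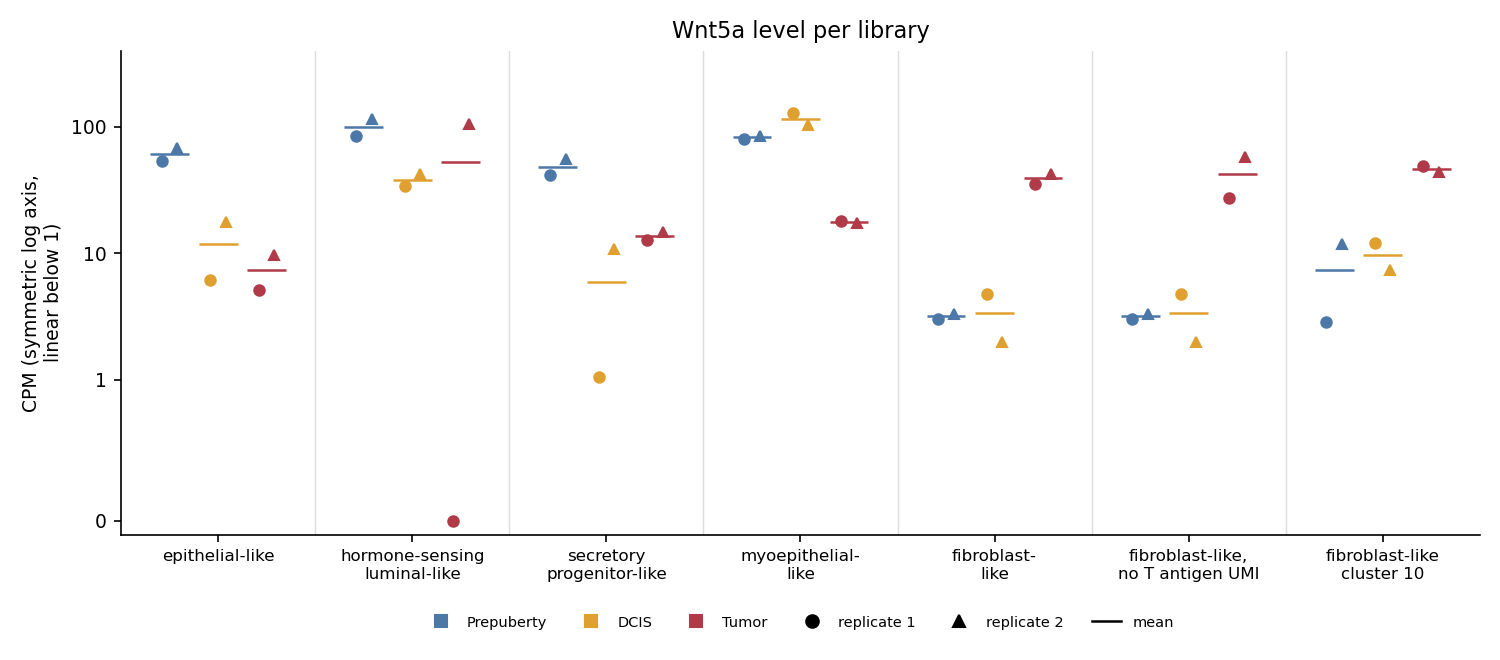
Wnt5a level (CPM, symmetric log axis) per library in 7 cell groups, colored by state, with circles for replicate 1, triangles for replicate 2 and a bar for the mean of the 2. In epithelial-like cells and the myoepithelial-like cluster the Tumor points lie below the Prepuberty points, and in fibroblast-like cells, with or without those that carry T antigen UMIs, they lie above all gland points.

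Wnt10a, a ligand of the canonical branch, was close to 0 in the epithelial-like cells of the prepubertal gland and was called higher in those of tumors. Its levels there were 0.0760, 0, 10.0, 4.28, 64.2 and 35.5 CPM, from 1, 0, 167, 67, 2856 and 992 UMIs. The states did not overlap, with Prepuberty lowest and Tumor highest. The ratio of the pooled levels of Tumor and Prepuberty was 828, with a 95% counting interval of 148 to 32696, since Prepuberty held 1 UMI. For DCIS and Prepuberty the ratio was 113 (interval 20.1 to 4478). Without Prepuberty 1, which held that UMI, the levels were at least 42.8-fold and 5.84-fold higher, and without DCIS 1 the second ratio was 66.7. The test from Prepuberty to Tumor gave a fitted log2 fold change of 9.24 (SE 0.98, adjusted p = 0.0231), which is no bound at such a count. It gave 2.48 from DCIS to Tumor (SE 0.55, adjusted p = 0.0645) and 6.76 from Prepuberty to DCIS (SE 1.03, adjusted p = 0.196). The first call was lost without Prepuberty 1 (adjusted p = 0.0875) or Prepuberty 2 (0.0883), and the change from DCIS was called without Tumor 2 (2.94, 0.0194). A UMI of Wnt10a was seen in 0.125%, 0%, 7.99%, 3.85%, 27.1% and 25.8% of the epithelial-like cells. With each cell thinned to 3000 UMIs the shares were 0%, 0%, 2.41%, 1.32%, 11.4% and 5.37%, and in endothelial-like cells, unthinned, they were 0%, 0%, 0.236%, 0%, 3.66% and 2.94%. The median depth of the epithelial-like cells was 6533 to 17368.5 UMIs over the libraries, and that of the endothelial-like cells 3735.5 to 9693 UMIs.

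Single epithelial-like clusters were read as well. In cluster 1 the levels were 0, 0, 14.2, 13.5, 62.6 and 40.3 CPM, and in cluster 2, led by Ankrd1, Edn1 and Gjb2, they were 0, 0, 10.8, 2.72, 41.9 and 27.3 CPM. In both, the states did not overlap and stood in that order, but Prepuberty 2 held only 7 cells in cluster 1 and 24 in cluster 2. Secretory luminal progenitor-like cells were lower, at 0.416, 0, 1.06, 0, 9.45 and 9.29 CPM, where Prepuberty and DCIS overlapped, with a fold change from DCIS to Tumor of 3.72 on the log2 scale (adjusted p = 0.0545). Cells with a T antigen UMI had more Wnt10a than cells without one in each of the later libraries, with 10.2 against 9.95 CPM in DCIS 1, 6.63 against 3.41 in DCIS 2, 70.6 against 33.2 in Tumor 1 and 40.1 against 25.2 in Tumor 2. A cell with more UMIs is more likely to show the T antigen, so these values are a description. The myoepithelial-like cluster, whose Tumor cells lacked Acta2 and Myh11, held Wnt10a in every state, at 18.3, 6.42, 7.74, 22.2, 33.7 and 9.86 CPM, and the states overlapped (log2 fold change from Prepuberty to Tumor 0.50, adjusted p = 0.769).

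Clusters 0 and 13 held the highest levels of Wnt10a. The tests of states within these clusters, and the fits with either added to a class, were not planned and were made after seeing the data. Cluster 0 was led by Ccl2, Ccl7 and Il1rl1. Its cells from the glands had fibroblast markers (5616 to 9648 CPM over 10 markers), and its 90 and 104 cells from the tumors had 176 and 2876 CPM, with 1225 and 155 CPM of epithelial markers and T antigen UMIs in 52.1% of them. Wnt10a was at 0 in the 4 gland libraries of cluster 0 and at 186 and 129 CPM in Tumor 1 and Tumor 2, from 255 and 268 UMIs, which is at least 587-fold higher than in Prepuberty and at least 202-fold higher than in DCIS against a floor of 3 UMIs over the 2 libraries. The first bound was 280-fold without Prepuberty 1 and 308-fold without Prepuberty 2, and the second 52.3-fold without DCIS 2. The calls had adjusted p of 0.000562 and 0.000778, and no library left out ended them. In cluster 13, which was led by Npy, Acan and Car12, the levels were 0, 0, 106, 7.15, 171 and 95.2 CPM, and the DCIS values rest on 5 UMIs and 1 UMI in 7 and 36 cells. T antigen UMIs were seen in 69.1% of the Tumor cells of cluster 13, and under 3 markers of any type were seen. Whether its gland and Tumor cells are of 1 type was not tested. The call from Prepuberty to Tumor there (adjusted p = 0.0134) was lost without Prepuberty 1 (0.0524).

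In fibroblast-like cells Wnt10a was at 0.0629, 0.0926, 0.227, 0.927, 4.12 and 74.7 CPM, from 1, 1, 1, 6, 8 and 208 UMIs. Tumor 2 stood far above every other library. Tumor 1 was at the level of its own endothelial-like cells, which had 5.00 CPM from 4 UMIs. The fitted log2 fold change from Prepuberty to Tumor was 8.13 (SE 1.41, adjusted p = 0.0327), and without Tumor 2 it was 5.34 (adjusted p = 0.0816). It also lost the call without Prepuberty 1 (0.177), Prepuberty 2 (0.245), DCIS 1 (0.0550) or DCIS 2 (0.0539). Its change from DCIS was 5.15 (adjusted p = 0.0517), and 5.05 (adjusted p = 0.0171) with the replicate number as a block and 5.95 (0.00581) without Tumor 1. In cells without a T antigen UMI the Tumor values were 1.91 and 55.2 CPM. The rise of epithelial and myoepithelial markers in these Tumor cells, given with Wnt5a, moved with the change, and its part was not tested.

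Wnt6, a canonical ligand and the neighbour of Wnt10a on chromosome 1, was also higher in tumor epithelium, at much lower counts. In epithelial-like cells it was at 0.152, 0, 1.56, 0.639, 3.80 and 3.36 CPM, from 2, 0, 26, 10, 169 and 94 UMIs. The 3 states did not overlap. The log2 fold change from Prepuberty to Tumor was 4.53 (SE 1.01, adjusted p = 0.0452). That call was close to the threshold and was lost with the replicate block (adjusted p = 0.0586), with only the 4 libraries compared (0.0756) and without Prepuberty 1 (0.185, at 9.14), Prepuberty 2 (0.164), DCIS 1 (0.101), DCIS 2 (0.0941) or Tumor 1 (0.0554). In cluster 0 Wnt6 was at 0.165, 0.181, 0, 0.338, 19.7 and 23.7 CPM, where the Tumor libraries lay above all gland libraries (log2 fold change from Prepuberty 6.23, SE 0.76, adjusted p = 0.00102). In that cluster the change from DCIS to Tumor was 5.54 (adjusted p = 0.00376), and without DCIS 2 it was 8.74 (adjusted p = 0.0570). The shift of markers in the Tumor cells of cluster 0, given with Wnt10a, moved with this rise, and its part was not tested. The myoepithelial-like cluster had 76.7, 5.14, 6.19, 10.8, 6.74 and 2.19 CPM, from 42, 4, 8, 48, 3 and 2 UMIs, and Prepuberty 1 stood apart from all others there. In fibroblast-like cells the values were 0.881, 1.39, 1.14, 1.85, 0 and 18.0 CPM, so that the 2 Tumor libraries were the lowest and the highest. Without Tumor 1 the changes from Prepuberty (3.26, adjusted p = 0.0285) and DCIS (2.63, 0.0444) were called, and without Tumor 2 they were -6.11 and -6.76. Cluster 21, a fibroblast-like cluster with no Tumor cells, had 9.76, 34.6, 17.3 and 30.7 CPM in its 4 libraries.

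**Figure D3:**
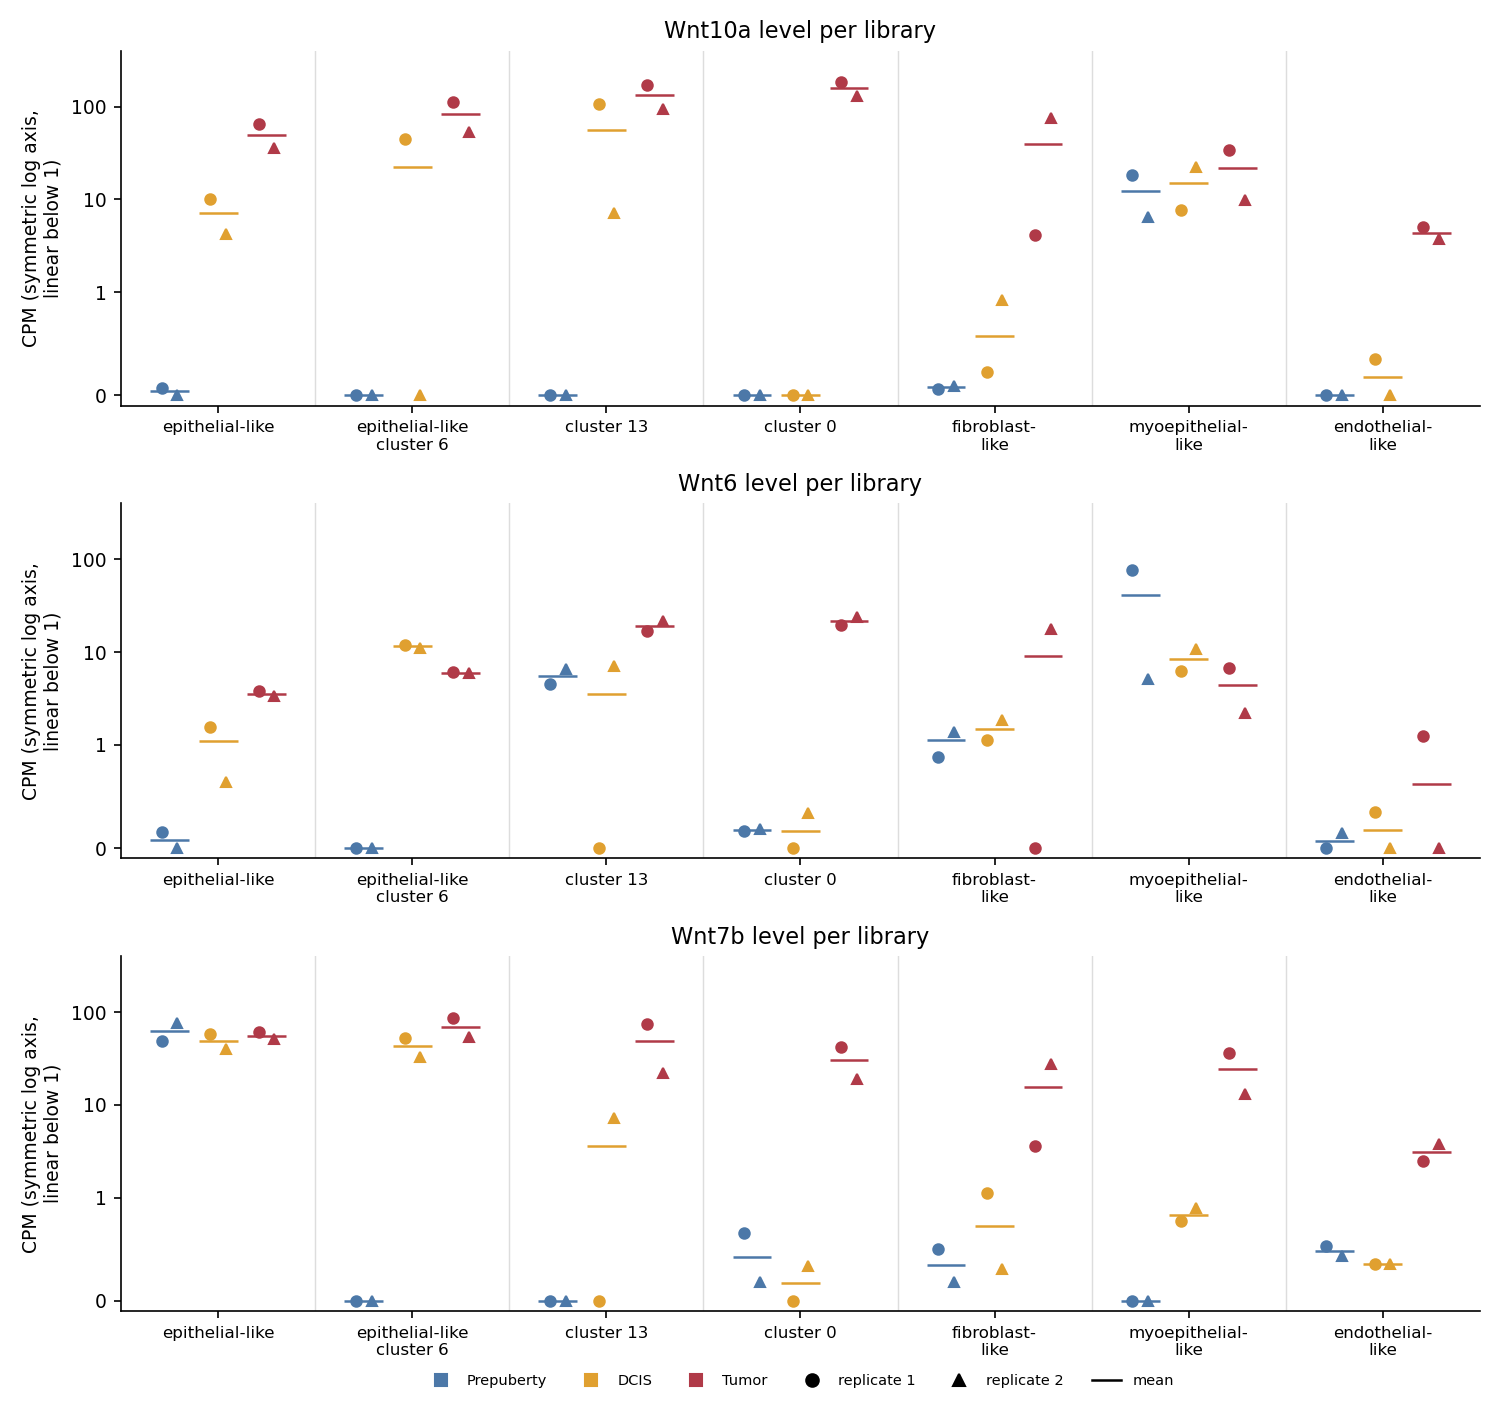
Levels of Wnt10a, Wnt6 and Wnt7b (CPM, symmetric log axis) per library in 7 cell groups, with circles for replicate 1, triangles for replicate 2 and a bar for the mean. In epithelial-like cells the Tumor points of Wnt10a and Wnt6 lie above those of the glands while those of Wnt7b overlap them, and in cluster 0 the Tumor points of all 3 genes are the highest.

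Wnt7b, a canonical ligand of the luminal epithelium, had overlapping levels in epithelial-like cells. Its values were 48.4, 75.7, 58.6, 39.8, 60.5 and 50.6 CPM, from 637, 183, 975, 624, 2689 and 1415 UMIs. Every state overlapped every other, at a log2 fold change from Prepuberty to Tumor of -0.38 (SE 0.35, adjusted p = 0.511). In the myoepithelial-like cluster it was at 0, 0, 0.774, 0.898, 35.9 and 13.1 CPM, from 0, 0, 1, 4, 16 and 12 UMIs. Both Tumor libraries lay above all gland libraries, at a level at least 9.12-fold higher than in Prepuberty (5.81-fold without Tumor 1, 15.9-fold without Tumor 2, and 5.35-fold and 3.77-fold without Prepuberty 1 or 2). The calls had adjusted p of 0.0105 from DCIS (log2 fold change 4.09, SE 0.86) and 0.0248 from Prepuberty. The first was lost without DCIS 1 (0.110), DCIS 2 (0.142) or Tumor 1 (0.0654), and the second without Prepuberty 1 (0.129), Prepuberty 2 (0.172) or Tumor 1 (0.0679). The shift of markers given for Wnt5a in this cluster moved with this rise too, and its part was not tested.

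In fibroblast-like cells Wnt7b was at 0.503, 0.185, 1.14, 0.309, 3.60 and 27.3 CPM. The Tumor libraries were the highest, but Tumor 1 was close to its endothelial-like cells at 2.50 CPM, and neither the change from Prepuberty (4.80 on the log2 scale, adjusted p = 0.0519) nor that from DCIS (3.71, adjusted p = 0.0766) passed with edgeR. Both were called by DESeq2 (adjusted p = 0.000356 and 0.0134), at clustering resolution 1.2 (0.00806 and 0.0125), without the clusters that hold T antigen (0.0226 and 0.0403), with cluster 0 added and without the filter on low counts, and the first also in cells without a T antigen UMI (0.0496). The difference between the classes in the change from Prepuberty to Tumor was -5.04 (SE 1.04, adjusted p = 0.0348). It was lost without Prepuberty 1 (-6.27, 0.0814), Prepuberty 2 (-4.32, 0.108), DCIS 1 (-4.95, 0.0670) or DCIS 2 (-4.95, 0.0694). Without Tumor 2 it was -3.09 (adjusted p = 0.0415), and the fibroblast-like changes were then 3.12 from Prepuberty and 2.00 from DCIS, neither called. Without Tumor 1 they were 5.45 (adjusted p = 0.0147) and 4.38 (0.0229), both called. In cluster 0 the levels were 0.659, 0.181, 0, 0.338, 42.4 and 18.8 CPM, and the rise was called from Prepuberty (5.61, SE 0.84, adjusted p = 0.00272) and from DCIS (6.09, adjusted p = 0.00587, and 9.29 with 0.0815 without DCIS 2). The same shift of markers stood beside this rise, and its part was not tested.

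Wnt5b, which is close in sequence to Wnt5a, was lower in tumor epithelium. Its epithelial-like levels were 54.7, 95.1, 50.5, 77.7, 14.5 and 30.2 CPM, from 720, 230, 839, 1217, 643 and 844 UMIs. Prepuberty and DCIS overlapped, and both Tumor libraries lay below them. The log2 fold change from Prepuberty to Tumor was -2.04 (SE 0.41, adjusted p = 0.0387) and from DCIS to Tumor -1.97 (SE 0.41, adjusted p = 0.0602, called without Tumor 2 at -2.40 with 0.0307). The call was lost without Prepuberty 1 (0.109), Prepuberty 2 (0.150), DCIS 1 (0.0646), DCIS 2 (0.0623) or Tumor 1 (0.0506), at fold changes of -2.33 to -1.73, and with only the 4 libraries compared (0.0590). In cluster 2 the levels were 90.7, 152, 80.5, 149, 17.9 and 46.4 CPM, again with the Tumor libraries lowest. Hormone-sensing luminal-like cells had 14.2, 62.6, 45.3, 52.1, 12.5 and 25.9 CPM, where Prepuberty and Tumor overlapped. The myoepithelial-like cluster had 31.0, 12.8, 23.2, 31.9, 18.0 and 19.7 CPM, where both Tumor libraries lay below both DCIS libraries and within the range of Prepuberty, and no change was called. Fibroblast-like cells had 1.45, 1.02, 0.454, 3.56, 6.18 and 7.18 CPM, with the Tumor libraries highest and no call (log2 fold change from Prepuberty 2.00, adjusted p = 0.209). The difference between the classes was -3.99 on the log2 scale (SE 0.71, adjusted p = 0.0233), and it was lost without Prepuberty 1 (-4.65, 0.0598) or Prepuberty 2 (-3.44, 0.0771).

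Wnt4 was seen in epithelial-like cells of all states. In Tumor 1 and Tumor 2, 548 of the 620 and 161 of the 268 epithelial-like UMIs lay in clusters that were named neither hormone-sensing nor secretory. Its epithelial-like levels were 25.4, 12.8, 6.13, 12.8, 13.9 and 9.58 CPM, and the 3 states overlapped (log2 fold change from Prepuberty to Tumor -0.98, adjusted p = 0.283). In hormone-sensing luminal-like cells they were 42.3, 19.96, 16.7, 21.5, 16.7 and 126 CPM, from 203, 15, 37, 103, 4 and 68 UMIs. Tumor 2 stood above all other libraries there while Tumor 1 was level with DCIS 1. The log2 fold change from DCIS to Tumor was 1.44 (SE 0.70, adjusted p = 0.318), and without Tumor 2 it was -0.72. The myoepithelial-like cluster had 0 to 3.29 CPM in 5 libraries and 15.7 CPM in Tumor 1, where its epithelial markers exceeded its myoepithelial ones, and fibroblast-like cells 1.11 to 5.39 CPM over all libraries. Endothelial-like cells of Tumor 1 had 10.0 CPM, from 8 UMIs.

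Wnt2, a canonical ligand of stromal cells, varied widely between libraries of 1 state. In fibroblast-like cells it was at 139, 11.9, 25.4, 12.5, 72.6 and 4.67 CPM, from 2201, 128, 112, 81, 141 and 13 UMIs. Replicate 1 was above replicate 2 in each of the 3 states, and all states overlapped. Prepuberty 1 alone held 82.6% of all UMIs of the gene. The log2 fold change from Prepuberty to Tumor was -1.20 (SE 1.37, adjusted p = 0.638), and without Prepuberty 1 it was 1.51. From Prepuberty to DCIS it was -1.81 (SE 1.38, adjusted p = 0.747), without Prepuberty 1 it was 0.98, and with the replicate number as a block it was -0.77 (adjusted p = 0.745). The split between the Prepuberty libraries was seen in cluster 3 (139 and 6.90 CPM) and cluster 10 (255 and 14.2 CPM), and less in cluster 4 (29.0 and 17.8 CPM). In cluster 0 the levels were 122, 12.1, 23.3, 23.3, 0 and 0 CPM, from 739, 67, 24, 69, 0 and 0 UMIs. Its Tumor cells were at least 79.7-fold lower than Prepuberty and at least 26.7-fold lower than DCIS against the floor of 3 UMIs, with adjusted p of 0.00625 and 0.0126. The bounds were 13.9-fold without Prepuberty 1 (first) and 139.6-fold without Prepuberty 2, 48-fold and 16.1-fold without Tumor 1, and 31.7-fold and 10.6-fold without Tumor 2. The second call was lost without DCIS 1 (0.0558), DCIS 2 (0.0686) or Tumor 2 (0.0661). The fibroblast markers of these cells were also lower in its Tumor cells, as given with Wnt10a, and the part of that shift was not tested. In cluster 13 Wnt2 had a mean of 51.4 CPM in Prepuberty and 0.114 CPM in Tumor, from 89 UMIs and 1 UMI. It was called lower there by edgeR (log2 fold change -8.85, SE 1.63, adjusted p = 0.0298), and the part of a change of cells was not tested. In epithelial-like cells Wnt2 was seen almost only in Prepuberty 1, at 1.82 CPM from 24 UMIs, where endothelial-like cells had 2.11 CPM.

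Rspo1, the R-spondin of the list, had few UMIs in any class. In fibroblast-like cells it was at 2.64, 2.41, 2.95, 4.79, 0.515 and 2.87 CPM, from 42, 26, 13, 31, 1 and 8 UMIs, and the DCIS libraries were the highest. From Prepuberty to Tumor it changed by -0.99 on the log2 scale (adjusted p = 0.448) and from DCIS to Tumor by -1.82 (SE 0.74, adjusted p = 0.160), neither of which passed. Epithelial-like cells had 0.608, 0.827, 2.83, 4.98, 0.0674 and 1.75 CPM, from 8, 2, 47, 78, 3 and 49 UMIs. DCIS lay above both other states in that class, with a log2 fold change from Prepuberty of 2.63 (SE 1.28, adjusted p = 0.442) and one from DCIS to Tumor of -2.67 (adjusted p = 0.205), neither of which passed. The latter was -1.73 without Tumor 1, -5.96 and called without Tumor 2 (adjusted p = 0.0212), and called without the filter on low counts (0.0173). The small fibroblast-like cluster 21 had 14.6, 37.8, 34.6 and 70.3 CPM in the gland libraries, from 3, 12, 4 and 16 UMIs in 41, 76, 27 and 53 cells.

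Lgr5, the R-spondin receptor known as a stem cell marker, was close to 0 in most sums. Fibroblast-like cells had 0, 0, 0.454, 0, 18.5 and 1.44 CPM, from 0, 0, 2, 0, 36 and 4 UMIs, so that Tumor 1 stood far above all others. Pooled, Tumor was at least 75.3-fold higher than Prepuberty against the floor of 3 UMIs, and 46.0 times DCIS (95% counting interval 11.9 to 393). Without Tumor 1 these were at least 12.8-fold and 7.81 times (interval 1.12 to 86.3), without DCIS 2 the latter was 18.6 times and without DCIS 1 at least 18.2-fold, and without Prepuberty 1 or Prepuberty 2 the former was at least 30.4-fold or 44.8-fold. Without Tumor 2 they were at least 165-fold and 101 times. The gene did not pass the filter on low counts in this class, so no test was made. Its Tumor 1 UMIs lay in cluster 10 (25 UMIs) and cluster 3 (11 UMIs), and the endothelial-like cells of that library had none. In epithelial-like cells the values were 0, 0, 0.180, 0.128, 1.71 and 0.823 CPM, from 0, 0, 3, 2, 76 and 23 UMIs. The Tumor libraries were highest, at least 7.10-fold above Prepuberty (4.27-fold without Tumor 1 and 1.10-fold without Prepuberty 1), and the test missed the threshold (adjusted p = 0.0745). The myoepithelial-like cluster had 0, 11.6, 3.87, 2.47, 2.25 and 0 CPM, from 26 UMIs in all.

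Axin2, the feedback gene that beta-catenin signalling induces, was higher in the fibroblast-like cells of Tumor 2 than in any other library. Its fibroblast-like levels were 4.22, 0.463, 5.45, 4.64, 7.72 and 28.0 CPM, from 67, 5, 24, 30, 15 and 78 UMIs. Both Tumor libraries were above all gland libraries, and the log2 fold change from Prepuberty of 2.36 (SE 0.92, adjusted p = 0.177) did not pass. It was 4.71 without Prepuberty 1, 1.51 without Prepuberty 2 and 1.505 without Tumor 2, none of them called. In cells without a T antigen UMI the Tumor values were 7.0 and 31.0 CPM. In epithelial-like cells the levels were 1.06, 0.414, 1.38, 0.639, 0.472 and 4.36 CPM, and the states overlapped (log2 fold change from Prepuberty to Tumor 1.06, adjusted p = 0.553). Tumor 2 was again the highest library there, and Tumor 1 was below both DCIS libraries.

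**Figure D4:**
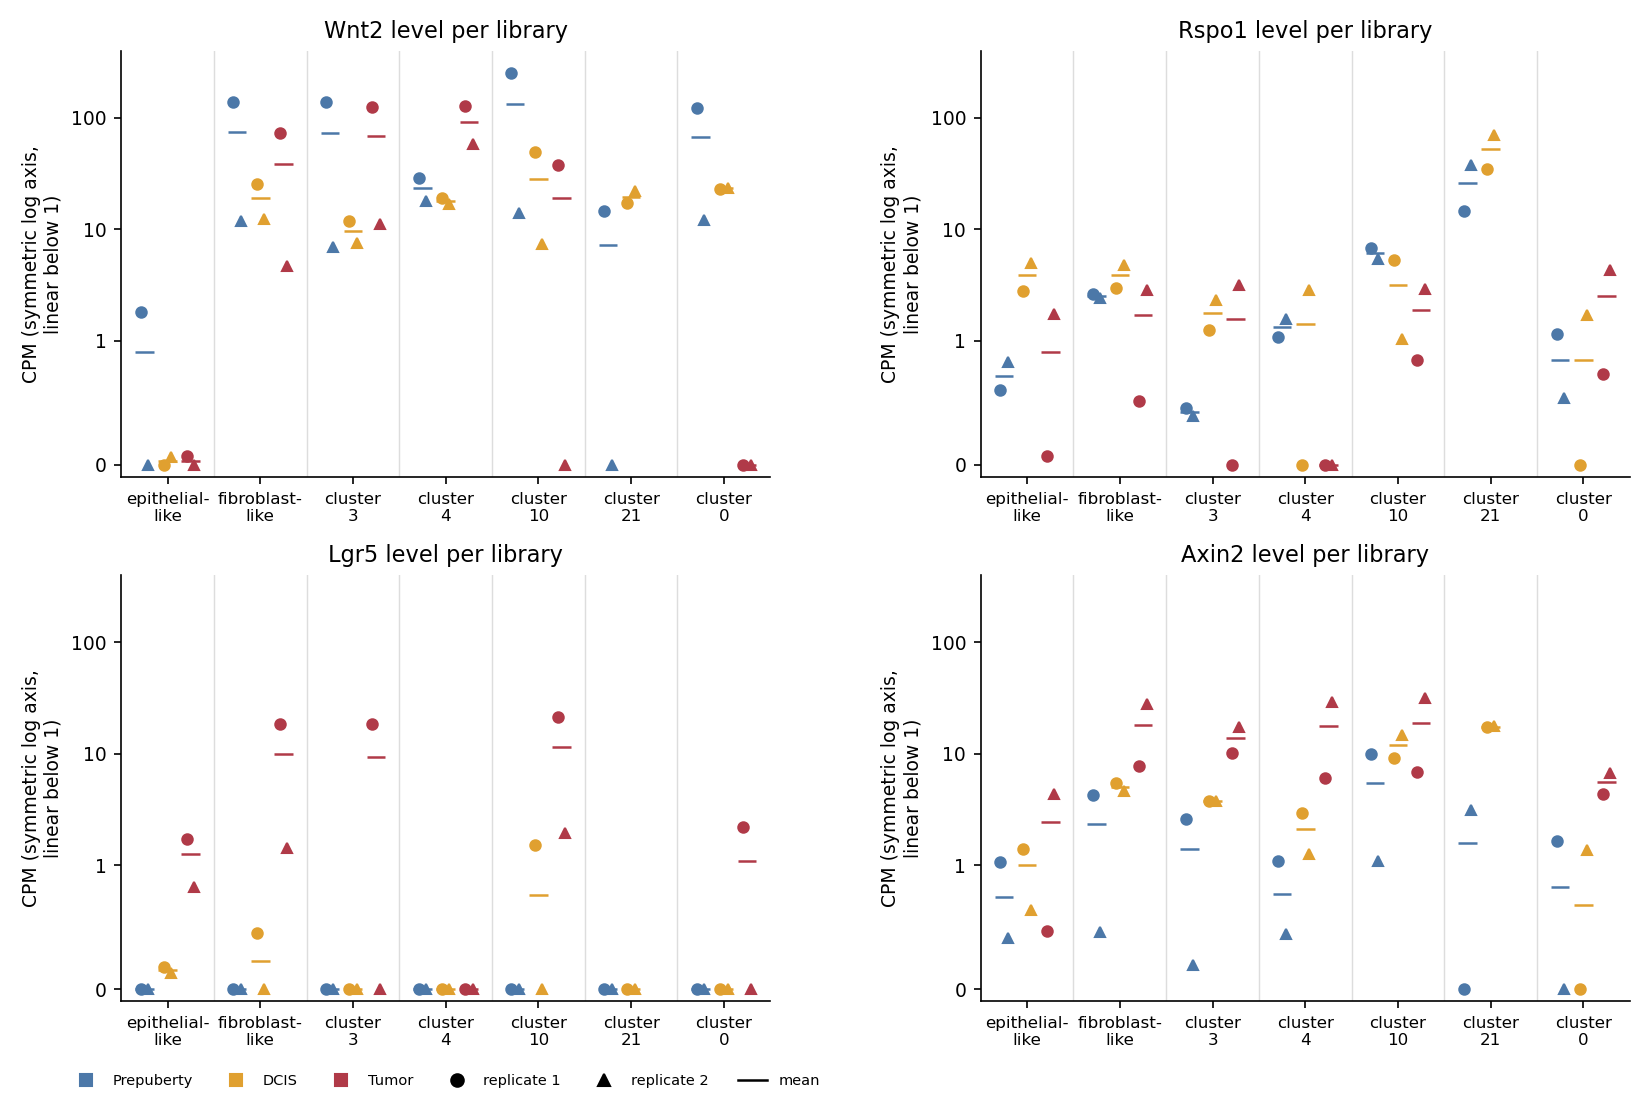
Levels of Wnt2, Rspo1, Lgr5 and Axin2 (CPM, symmetric log axis) per library in epithelial-like cells, fibroblast-like cells, the fibroblast-like clusters 3, 4, 10 and 21 and cluster 0, with circles for replicate 1, triangles for replicate 2 and a bar for the mean. The 2 Prepuberty points of Wnt2 lie far apart, the highest Lgr5 points are those of Tumor 1 fibroblast-like cells, and the highest Axin2 points are those of Tumor 2.

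The counts of called genes were read against all genes tested. In epithelial-like cells 9 of the 10 genes passed the filter (Wnt2 did not), and from Prepuberty to Tumor 2 were called higher and 2 lower, against 6.04% of all genes. From DCIS to Tumor edgeR called none of the 9 against 1.24% of all genes, and DESeq2 called 2. At an unadjusted p under 0.05 there were 4 of the 9 and 3259 of all 13385 genes. From Prepuberty to DCIS edgeR called none of them and 0.0% of all 13385 genes, with 3 of the 9 and 1647 of all genes at an unadjusted p under 0.05, and DESeq2 called 2 of the 9. In fibroblast-like cells 9 passed (Lgr5 did not), and 2 were called from Prepuberty to Tumor against 3.77% and 1 from DCIS to Tumor against 5.42%, all higher. From Prepuberty to DCIS edgeR called none (background 0.0%) and DESeq2 called 0, with 0 of the 9 and 876 of all 11586 genes at an unadjusted p under 0.05. In the myoepithelial-like cluster 4 passed (Wnt5a, Wnt5b, Wnt7b and Wnt10a), and 1 was called higher and 1 lower in both comparisons with Tumor, against 23.0% from DCIS and 9.68% from Prepuberty. Between the glands edgeR called none there (background 0.0%) and DESeq2 called 0, with 1 of the 4 and 887 of all 7893 genes at an unadjusted p under 0.05.

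The hormone-sensing luminal-like and secretory luminal progenitor-like cells gave no call among the 4 and 5 genes tested there. For hormone-sensing luminal-like cells edgeR called 0.0% of all 9251 genes in each of the 3 comparisons. At an unadjusted p under 0.05 there was 1 of the 4 genes from DCIS to Tumor, against 1698 of all 9251 genes. There were 0 from Prepuberty to DCIS and to Tumor, against 580 and 1232 of all genes, and DESeq2 called 0. For secretory luminal progenitor-like cells the background was 0.0% from Prepuberty to DCIS, 7.78% from DCIS to Tumor and 5.77% from Prepuberty to Tumor. The counts at an unadjusted p under 0.05 were 1, 2 and 3 of the 5 genes in that order. Over all 10549 genes they were 893, 2963 and 2756. DESeq2 called 0, 0 and 1 of the 5. In cluster 0, where 7 genes passed, 3 were called higher and 1 lower in both comparisons with Tumor, against 22.2% of all genes from DCIS and 13.5% from Prepuberty. In cluster 13, where 6 passed, 1 was called higher and 1 lower from Prepuberty to Tumor against 3.63%. The comparisons of Tumor with DCIS and with Prepuberty share the Tumor libraries.

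**Figure D5:**
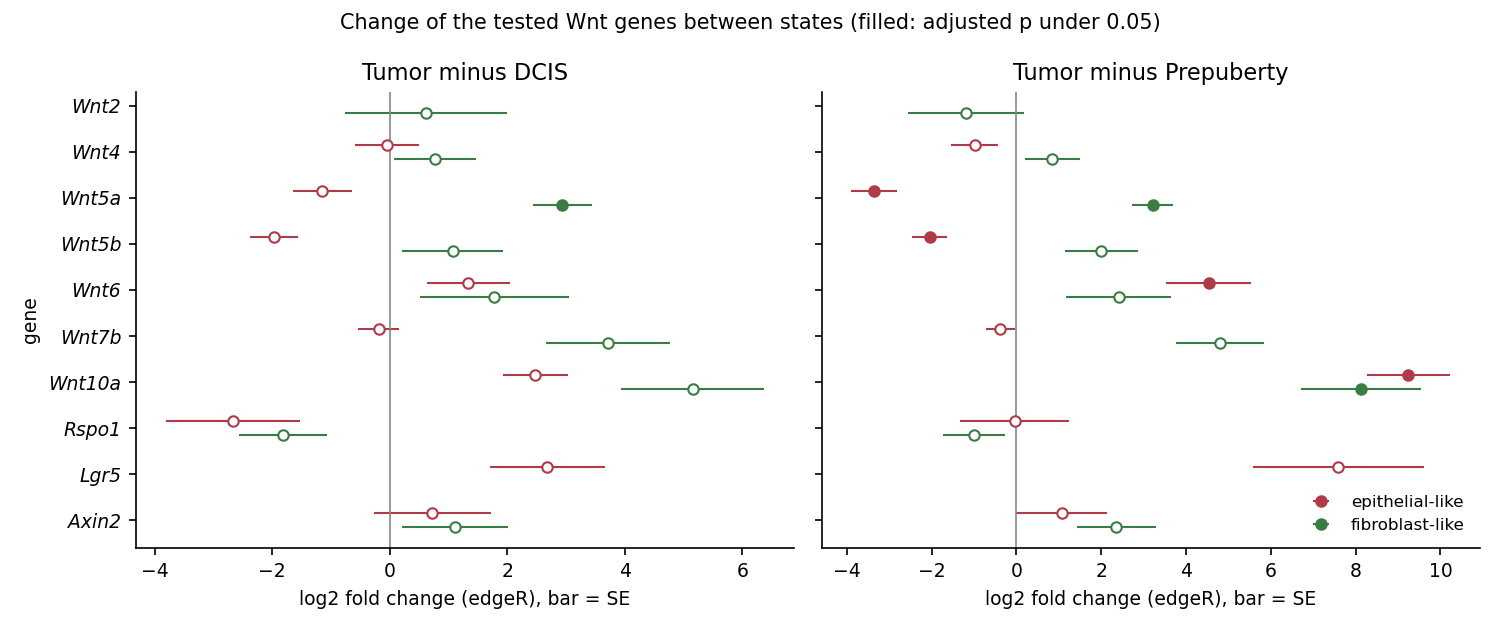
Log2 fold changes of the tested genes from DCIS to Tumor and from Prepuberty to Tumor in epithelial-like (red) and fibroblast-like (green) cells, with the standard error as a bar and filled points where the adjusted p was under 0.05. From Prepuberty, Wnt5a is filled on opposite sides of 0 in the 2 classes, at -3.35 and 3.21, and Wnt10a is filled at 9.24 and 8.13.

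The other genes of the pathway were read from 8 lists of 84 genes by role, the 10 genes included. In epithelial-like cells 62 of the 84 were tested, and 6 were called higher and 4 lower from Prepuberty to Tumor, against 6.04% of all genes called, with a median log2 fold change of 0.31 (0.09 over all genes). Lef1, a transcription factor that acts with beta-catenin, was at 0, 0, 0.120, 0, 3.33 and 4.26 CPM, from 0, 0, 2, 0, 148 and 119 UMIs, and was called higher from Prepuberty (adjusted p = 0.0442). The receptor of R-spondins Lgr6 was at 5.85, 5.38, 3.31, 2.75, 28.4 and 29.5 CPM, so that both Tumor libraries stood above all others. Nkd2, an antagonist of Dishevelled that acts in the cell, was at 2.74, 2.48, 48.8, 19.9, 95.0 and 208 CPM, and its states did not overlap (log2 fold change 5.48, SE 0.58, adjusted p = 0.0231). The transcription factor Tcf7 was at 4.33, 5.38, 8.54, 6.0, 17.8 and 26.9 CPM, and Dvl1, a transducer below the receptor, at 33.0, 40.5, 43.6, 41.9, 13.6 and 16 CPM. These 2 were called in opposite directions, higher for Tcf7 and lower for Dvl1. Procr, a target known as a marker of mammary stem cells, was lower in Tumor at 11.5, 88.5, 15.4, 6.96, 2.14 and 4.29 CPM. From DCIS to Tumor, where 2 were called higher and 1 lower against 1.24% of all genes, the cell cycle gene Ccnd1 had the largest change among the called, at 22.2, 43.4, 7.94, 13.6, 133 and 121 CPM (log2 fold change 3.18, SE 0.45, adjusted p = 0.0352).

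In fibroblast-like cells 60 of the 84 were tested, with 7 higher and 2 lower from Prepuberty to Tumor (3.77% of all genes were called) at a median log2 fold change of 0.99 (0.03 over all genes), and 3 higher and 2 lower from DCIS to Tumor (5.42% of all genes) at a median of 0.72 (0.10 over all genes). Wls, which carries Wnt proteins to the cell surface for secretion, was at 60.1, 40.9, 49.5, 36.9, 212 and 588 CPM, and its Tumor libraries were far above the glands. Its rise was called from DCIS (log2 fold change 2.49, SE 0.46, adjusted p = 0.0349). The secreted antagonist Dkk2 was at 0.504, 0.371, 8.18, 1.70, 41.7 and 15.1 CPM and rose from Prepuberty (log2 fold change 5.65, SE 1.03, adjusted p = 0.0365). The ligand Wnt9a was at 0.504, 1.02, 2.95, 1.70, 23.2 and 8.26 CPM, the receptor Fzd6 at 0.0629, 0, 0, 0, 2.06 and 7.90 CPM and Nkd2 at 5.54, 2.59, 14.1, 9.43, 34.0 and 51.7 CPM, all called higher from Prepuberty. Tcf7l2, another TCF factor, was at 17.6, 15.3, 3.18, 6.49, 41.2 and 54.2 CPM and was called higher from DCIS. Procr fell, from 260, 141, 690 and 646 CPM in the glands to 22.1 and 12.9 CPM in the tumors, and the secreted antagonist Sfrp5 was at 6.67, 6.39, 26.8 and 35.4 CPM in the glands and had no UMI in the tumors. The shift of markers in the fibroblast-like cells of tumors, given with Wnt5a, moved with these changes too, and its part was not tested. In the myoepithelial-like cluster 42 were tested, and 3 were higher and 8 lower from DCIS to Tumor, a share close to the 23.0% of all genes called there, with a median of -0.44 (0.026 over all genes). Those that rose included Nkd2, at 10.95, 0, 3.10, 5.39, 166 and 294 CPM, and Ccnd1, at 5.48, 5.14, 2.32, 3.59, 137 and 41.6 CPM. Those that fell included the secreted antagonist Wif1, at 14.6, 95.0, 85.9, 39.1, 0 and 1.10 CPM, the feedback gene Nkd1, at 9.13, 8.99, 15.5, 15.3, 2.25 and 1.10 CPM, and the ubiquitin ligase Rnf43, at 23.7, 10.3, 18.6, 21.5, 6.74 and 0 CPM. Fzd7, a Frizzled receptor, fell as well, at 148, 162, 216, 183, 24.7 and 27.4 CPM. From Prepuberty to Tumor, 3 of the 42 were called higher and 5 lower, against 9.68% of all genes. The myoepithelial markers of the cluster were lower in its Tumor cells too, as given with Wnt5a, and their part was not tested. The alternatives and the fits without 1 library were read for the 10 genes and not for these others.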

How the data were processed

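Single cells of 6 female C3Tag mammary samples were profiled with the 10x 3' assay. The deposited counts are raw UMI counts per gene and cell, made by the authors with Cell Ranger 3.0.2 and with the T antigen added to the reference, and the submitters' notes name mm10. The labels and the methods differ on kit and dissociation, and both are given with the results.

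Cells with at least 200 genes and under 10% mitochondrial UMIs were kept, and the share of doublets expected from the number of cells was removed by Scrublet score (its automatic calls marked only 31). Cells were integrated and clustered with Seurat 5.3.0 (2000 variable genes without the 84 Wnt genes, 20 dimensions, resolution 0.8). Clusters were named from fixed markers when at least 3 were seen, unless their leading genes were of another type or their UMIs were low. Cluster 0 had 4 fibroblast markers seen. It stayed unnamed, and so outside the fibroblast-like class, because of leading genes of the lymphatic endothelial type. UMIs were summed per class and library with at least 10 cells and tested with edgeR 4.0.16 (TMM, filterByExpr, quasi-likelihood, two-sided, state as the only term) in R 4.3.3, after a check on simulated data. Each fit held all libraries, so 1 estimate of the spread served the 3 comparisons. Python 3.11.15 was used for the tables. Of the features, 30934 were matched to the annotation. DESeq2 1.42.0, other filters, clusterings, depths and libraries left out were tried as alternatives. Intervals and floors cover counting error only. Where a library left out leaves 1 in a state, that library is assumed to vary like the others.

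Same-numbered libraries were compared by the correlation of their deviations from the state means. It was 0.425, 0.143 and 0.220 over the 3 pairs of states in fibroblast-like cells, where the numbers were taken as pairing, and -0.152 to 0.212 in the other classes, where they were not. The pairing comes from the data, not from the labels. The same libraries supply every class, and 0.143 lies below the highest value elsewhere. The block is therefore given only as an alternative to the main fit. The members and lists were chosen with earlier results of these data known. The 10 genes are always named, with at most 6 other Wnt genes per class and comparison by size of fold change and the 3 genes most alike for each of them, of which 1 is not reported here.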

Additional observations from a re-analysis of the deposited data

Results flagged for a closer look

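For 4 effects of the state, the change differed between epithelial-like and fibroblast-like cells by the test of the difference itself, a fit over both classes with the library as a block. For Wnt5a the difference was -6.57 on the log2 scale from Prepuberty to Tumor (SE 0.81, edgeR adjusted p = 0.0124) and -3.94 from DCIS to Tumor (SE 0.83, adjusted p = 0.0479). For Wnt5b it was -3.99 from Prepuberty to Tumor (SE 0.71, adjusted p = 0.0233), and for Wnt7b it was -5.04 (SE 1.04, adjusted p = 0.0348). From Prepuberty to Tumor, Wnt5a fell in epithelial-like cells (-3.35) and rose in fibroblast-like cells (3.21), both called, and from DCIS the values were -1.14, which did not pass the test, and 2.94. For Wnt7b the epithelial-like levels of the states overlapped. Of the other members, Wnt10a gave a difference of 1.27 (adjusted p = 0.885) and Wnt2 one of -3.45 (adjusted p = 0.0562, called without Tumor 2 with 0.0197) from Prepuberty to Tumor. In Tumor libraries the fibroblast-like cells also had higher summed levels of epithelial and myoepithelial markers than in the glands, and the part of that in the differences was not tested.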

How the results depend on the processing

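No called change of the 10 genes, and no called difference between classes, turned direction under the alternatives run. The calls of Wnt5a in the myoepithelial-like cluster were kept under the 15 alternatives that could be fitted, which leave out clustering without integration, those of Wnt10a and Wnt5a in epithelial-like cells under 16 of 18, that of Wnt5b under 12 of 18 and that of Wnt6 under 10 of 17. In fibroblast-like cells Wnt5a was kept from Prepuberty under 17 of 19 and from DCIS under 13 of 19, and Wnt10a under 13 of 18. The limit is the design, with 2 libraries a state, and low counts for Rspo1, Lgr5 and Axin2.

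The number of the 10 genes called moved as follows, and the cause was not tested beyond the setting named. In epithelial-like cells it was 0 from Prepuberty to DCIS, and 2 with DESeq2 or without the filter. It was 0 from DCIS to Tumor, and 2 with DESeq2, 4 without the filter, 2 without integration and 1 with cluster 13 (added after seeing the data), and 0 to 3 with 1 library left out. From Prepuberty to Tumor it was 4, and 2 with only the 4 libraries compared (0 to 4 with 1 left out). In hormone-sensing luminal-like cells it was 0 from DCIS to Tumor and from Prepuberty to Tumor, with 2 and 1 without the filter, 1 and 1 without integration, and 0 to 1 with 1 left out. In secretory luminal progenitor-like cells it was 0 throughout, with 1, 1 and 3 without the filter in the 3 comparisons. From DCIS to Tumor it was 1 with mitochondria under 5% or more doublets removed, and from Prepuberty to Tumor 1 with DESeq2, only 4 libraries, the replicate block or no integration (0 to 1 with 1 left out). In the myoepithelial-like cluster it was 2 in both Tumor comparisons, and 1 when thinned or with more doublets removed (1 to 2 and 1 to 3 with 1 left out), and from Prepuberty 1 with only 4 libraries. Without integration that class held no Tumor cells and could not be fitted. In fibroblast-like cells it was 0 between the glands, and 1 without the filter. It was 1 from DCIS to Tumor, and 3 with DESeq2, 4 without the filter, 0 with only 4 libraries, 2 with the replicate block, 2 with mitochondria under 5%, 4 at resolution 1.2, 3 without clusters that hold T antigen and 4 with cluster 0 (0 to 4 with 1 left out). From Prepuberty to Tumor it was 2, and 7 without the filter, 1 when thinned, 4 at resolution 1.2 and 4 with cluster 0 (0 to 4 with 1 left out), and 3 with DESeq2, in cells without T antigen UMIs and without clusters that hold T antigen. With 1 left out, cluster 0 gave 1 to 5 and 4 to 5, and cluster 13 gave 0 to 3. For the difference between classes it was 0 between the glands (1 without the filter), 1 from DCIS (0 with RLE factors, 3 without the filter, 0 to 3 with 1 left out) and 3 from Prepuberty (0 to 5 with 1 left out).

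Some uncalled values turned sign. From DCIS to Tumor, Wnt5a in epithelial-like cells was 0.11 with T antigen cells only. In hormone-sensing luminal-like cells it was -0.078 with DESeq2, -0.017 without the filter, -9.72 to 0.77 with 1 library left out (lowest without Tumor 2), -0.26 with the replicate block and -0.52 with mitochondria under 5%, and with 1 left out Wnt4 was -0.72 to 2.01 from DCIS and -1.30 to 1.72 from Prepuberty, lowest without Tumor 2. In fibroblast-like cells Wnt2 with 1 left out was -2.65 to 0.98 from Prepuberty to DCIS and -4.76 to 1.51 to Tumor, highest without Prepuberty 1, and 0.21 to Tumor without clusters that hold T antigen. Wnt6 was -6.76 to 2.63 from DCIS and -6.11 to 3.26 from Prepuberty, lowest without Tumor 2. The difference between classes was -4.04 to 0.84 for Wnt10a from DCIS (highest without Tumor 2) and -3.55 to 0.63 for Wnt2 from Prepuberty (highest without Prepuberty 1).

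With the replicate number as a block, the fibroblast-like values were 2.99 (adjusted p = 0.0213) from DCIS and 3.21 (0.0156) from Prepuberty for Wnt5a and 7.64 (0.00891) for Wnt10a from Prepuberty, by edgeR. This block added calls for Wnt10a from DCIS (5.05, adjusted p = 0.0171) and, in secretory luminal progenitor-like cells, Wnt5b from Prepuberty (-1.42, adjusted p = 0.0474), ended that of Wnt6 in epithelial-like cells (4.84, adjusted p = 0.0586) and ended no other of the 10 genes' calls. By the labels, same-numbered libraries share only a number, in fibroblast-like cells as in the other classes.

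Over all genes the counts of calls ranged widely. In epithelial-like cells they were 0 (0 to 702), 166 (0 to 2004) and 809 (0 to 2709) for the 3 comparisons, and in fibroblast-like cells 0 (0 to 260), 628 (0 to 2473) and 437 (0 to 2201). In the myoepithelial-like cluster they were 0 (0 to 190), 1819 (765 to 2760) and 764 (314 to 1407), in hormone-sensing luminal-like cells 0 in each (0 to 159, 0 to 900 and 0 to 517) and in secretory luminal progenitor-like cells 0 (0 to 193), 821 (46 to 1915) and 609 (3 to 1738). Levels by class moved by less than the spread between libraries under the alternatives run.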

Other observations

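For each of the 10 genes, the genes whose level was most alike over 59 sums of class and library with at least 50 cells were listed, by Pearson's correlation of log2(CPM + 1). The sums share 6 libraries, so the values are a description with no test. Wnt2 went with Igsf21 (0.956), Lhx8 (0.919) and Fgf10 (0.909), a fibroblast growth factor of the mesenchyme. Wnt4 went with the tight junction gene Cldn7 (0.804), Cysrt1 (0.794) and Plet1 (0.793). Wnt5a went with C130021I20Rik (0.868), Lmx1b (0.847), a transcription factor, and Gm15867 (0.834). Wnt5b went with Cdcp1, Tmem184a (both 0.931) and Esrp1 (0.921), a splicing factor of epithelia, and Wnt7b with Padi4 (0.910), Cysrt1 (0.906) and Ccdc120 (0.905). Wnt10a went with Klhdc8a (0.830) and Ank (0.823). Wnt6 was most like its neighbour Wnt10a (0.726), then 9530053A07Rik and Padi3 (both 0.714). Values were lower for the sparser genes, with Axin2 most like the antagonist Dkk3 (0.668), Tnfsf11 (0.623) and Mycbp2 (0.619), Rspo1 most like Dclk1 (0.633), Tmed2 (0.613) and Sdc2 (0.602), and Lgr5 most like 1500015O10Rik (0.605), Csdc2 (0.595) and Gm26771 (0.591).

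In secretory luminal progenitor-like cells 44 of the 84 Wnt list genes were tested, and 5 were called higher and 3 lower from DCIS to Tumor, against 7.78% of all genes. Among the 6 with the largest fold changes, Procr was lower at 11.7, 3.27, 38.1, 7.43, 0 and 3.0 CPM over the 6 libraries, and so was the secreted antagonist Sfrp2, at 9.57, 13.1, 3.18, 11.5, 1.30 and 0.899 CPM. Igfbp4 was higher at 6.66, 1.63, 0.530, 0.743, 6.85 and 33.6 CPM, with Tumor 1 level with Prepuberty 1, and Dkk3 at 0.416, 0, 0.530, 0.371, 7.96 and 8.69 CPM. Tcf7 was at 1.67, 3.27, 1.06, 2.60, 21.9 and 24.9 CPM, with both Tumor libraries above all others (edgeR log2 fold change from DCIS 3.01, SE 0.57, adjusted p = 0.0229). Nkd2 was at 1.25, 0, 26.0, 2.97, 109 and 242 CPM and Dvl1 at 41.6, 35.9, 60.9, 44.6, 11.1 and 13.2 CPM, in the same directions as over all epithelial-like cells, of which this class is a part.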
